A study of Saccharomyces cerevisiae with 7 samples.

Results

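A start context that matches the full yeast consensus was defined here by the 6 bases before the start codon. A gene was taken as a member when its context held A or T at -6, A at -5, A or C at -4, A at -3, A or C at -2 and A at -1, where -1 is the base next to the start codon. Of 5559 genes with a deposited 20-base context, genes of cytosolic ribosomal proteins left out, 153 matched (2.75%). These are called the consensus genes. The choice used sequence and no measured value. Another 12 of 132 ribosomal protein genes with a context matched as well (9.09%) and were left out of the set.

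The counts are of mRNA that came with ribosomes of budding yeast in the BY4741 background (S288C). The strain of 6 of the 7 libraries has the chromosomal RPS3 and RPS26A under the GAL1 promoter, which is on in galactose and off in glucose, a KanMX6 replacement of RPS26B, and a plasmid, pCM189, that supplies Rps3-TAP under a promoter held off by doxycycline. Cells grew to mid-log phase in YPGal with 0.2 µg/ml doxycycline, were shifted for 4 h to YPD, and received 100 µg/ml cycloheximide before harvest. Tagged ribosomes, labelled as lacking Rps26, were bound to IgG beads for 2 h and released with TEV protease (Minus_Rps26, 3 biological replicates). Untagged ribosomes, labelled as containing Rps26, were collected from a sucrose gradient of the unbound flowthrough of the same lysates (Plus_Rps26, 3 biological replicates). Ribosome class and purification route thus go together in these groups and cannot be told apart. Rps3-TAP is a single bead-purified library of a strain with RPS3 TAP-tagged in the genome and no change to the RPS26 genes in its label, grown to mid-log phase in YPD, treated with cycloheximide and with no doxycycline named.

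The start context is the stretch of mRNA around the start codon that the scanning small ribosomal subunit reads while it selects the codon. In yeast, A at -3 is the base most closely tied to efficient initiation, and highly expressed genes tend to be rich in A across the bases just upstream. Rps26 is a protein of the small subunit that lies at the mRNA exit channel, close to the upstream bases of the context when the start codon is in the decoding site. The study's title ties Rps26 to recognition of these bases, so a gene with all of them in place is a direct case for the comparison of ribosomes with and without it.

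The contexts of the most abundant consensus genes and of those with the most extreme fold changes between the classes are shown first, since the results turn on these genes. Each is the authors' deposited sequence of the 20 bases before the start codon on the coding strand, 5′ to 3′, with positions -6 to -1, the ones the rule read, in capitals. The 10 members with the highest level per kb of coding length were these:
YDR524C-B: cactaatcatcaacAAAACA
TDH3: aacacacataaacaAACAAA
PGK1: tttacaacaaatatAAAACA
CWP2: acacactaacaagaAAAAAA
HOR7: aaaaagactaataaTAAAAA
TSA1: tacatacacatacaTACACA
TDH2: acacaaacaaacaaAACAAA
YPR170W-B: aagcaaacaccgcaAAAAAA
RPB10: aagcaaaataataaTACAAA
TKL1: ttacctctttagcaAACAAA
Those with the lowest log2 fold changes of Minus_Rps26 over Plus_Rps26, PGK1, HOR7 and TDH2 above aside, were these:
CHO1: ataaaactatatatTAAAAA
APS2: tgctgtaagggataAAAAAA
ADH2: taactatatcgtaaTACACA
TDH1: aaatttacacacaaAACAAA
REE1: aagataaattaccaAACACA
Those with the highest log2 fold changes were these:
UBP3: ttccatcatcattaAAAAAA
ITC1: aagaaagccgttaaTAAACA
SLI15: agagcccgaagattTAAACA
PSK2: aatcataaacaaagAACACA
PDS5: agaaataaagtgcgAACAAA
PDR12: ttgttcttattaatAAAAAA
SQS1: tgttgtaaccgtcaAAAAAA
GEA1: aatacggcttcataTACAAA

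The capitals show the variation the rule permits. The run of 6 A was the most common form, in 64 of the 153 genes, CWP2, HOM6 and UBP3 among them. The form with C at -4 and A elsewhere, shared by TDH1, TDH2, TDH3 and TKL1, was found in 19 genes. Other forms were T at -6 with A elsewhere (17 genes, such as CHO1 and HOR7), C at -2 with A elsewhere (16, such as PGK1), T at -6 with C at -2 (13, such as ITC1 and SLI15), C at -4 and -2 (11, such as PSK2), T at -6 with C at -4 (8, such as RPB10 and GEA1) and all 3 alternatives together (5, such as TSA1 and ADH2). Over all 5559 contexts the share of genes with a permitted base was 64.3% at -6, 35.9% at -5, 63.0% at -4, 60.2% at -3, 61.8% at -2 and 44.1% at -1. The product of these shares gives 132.8 genes, or 2.39%, against the 153 found.

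The bases the rule did not use were also rich in A. Over -20 to -7 the consensus genes averaged 44.3% A and 22.4% T, against 39.8% A and 26.0% T in the 5406 other genes. The difference was widest next to the matched bases, with A at -7 in 50.3% of consensus genes against 38.4%, at -8 in 51.0% against 39.3% and at -9 in 47.7% against 37.8%. A run of 6 A within -20 to -7 occurred in 11 consensus genes (7.19%, against 3.05% of the others). The letters ATG, read on the coding strand, occurred within -20 to -7 in 3 consensus genes (1.96%, against 3.87%). These were DLS1, which encodes a subunit of a chromatin remodelling complex, the mitochondrial GTPase gene GEM1, and SRP72 of the signal recognition particle.

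Counts over annotated features came to 11590456 to 21405499 in Minus_Rps26, 9605899 to 15279242 in Plus_Rps26 and 16145589 in Rps3-TAP. RPS26A, the depleted gene, had 612 to 1075 counts in Minus_Rps26 and 545 to 1042 in Plus_Rps26, against 100566 in Rps3-TAP, and the deleted RPS26B had 10 to 17 counts in 5 libraries of the depletion strain, 142 in Plus_Rps26 replicate 2 and 14293 in Rps3-TAP. Levels below are CPM, counts divided by the library size after edgeR's trimmed-mean scaling over the 7 libraries. A gene is said to rise or fall where edgeR's quasi-likelihood test gave an adjusted p (Benjamini-Hochberg over all features tested) under 0.05. By that test RPS26A fell in Minus_Rps26, with 44.2, 25.4 and 35.1 CPM against 48.2, 111 and 96.9 CPM in Plus_Rps26. Its log2 fold change was -1.3 ± 0.35 (SE; edgeR adjusted p = 0.0392). RPS3, the other engineered gene, had 1451, 3564 and 2087 CPM in Minus_Rps26 and 7824 CPM in Rps3-TAP. In Plus_Rps26 it had 348, 6304 and 8332 CPM, so that replicate 1 stood far below the other libraries of its group. The log2 fold change of RPS3 was -1.09 ± 0.81 (SE; edgeR adjusted p = 0.351). Of the 153 consensus genes 150 passed the filter on low counts in the fit of Minus_Rps26 against Plus_Rps26 and 152 in the fits with Rps3-TAP. The hexose transporter gene HXT13, the meiotic splicing factor gene MER1 and YJL136W-A were the 3 not tested between the classes, each at 1.06 CPM or less in every library.

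Consensus genes were more abundant and shorter than the rest. Their median level was 50.4 CPM per kb of coding length, averaged over the 3 groups, against 36.3 CPM per kb for the other genes with a context, and the middle 50% ran from 22.3 to 155 CPM per kb. A level above 1000 CPM per kb was reached by 8 of them (5.23%) and by 1.68% of the others. They held 4 of the 20 highest places by this measure and 27 of the highest 500. The median coding length was 1083 bases, against 1248 bases. By group the median level of consensus genes was 47.3 CPM per kb in Minus_Rps26, 56.9 in Plus_Rps26 and 49.4 in Rps3-TAP, while the others stood at 38.8, 34.0 and 31.3 CPM per kb.

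Genes of glycolytic enzymes, of a cell wall protein and of small proteins were at the head of the set. YDR524C-B, an open reading frame of 201 bases, averaged 17370 CPM per kb over the 3 groups. TDH3, the main glyceraldehyde-3-phosphate dehydrogenase gene, averaged 8861 CPM per kb, PGK1, the phosphoglycerate kinase gene, 8671, and CWP2, a mannoprotein gene of the cell wall, 8632. HOR7, a gene induced by hyperosmotic stress, followed at 4605 CPM per kb and TSA1, the major cytosolic peroxiredoxin gene, at 3253. Reads of TDH1, TDH2 and TDH3 may be split wrongly, since the copies are nearly identical, and the same holds for TKL1 and TKL2 and for PDC5 and PDC6.

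The share of counts that fell to the consensus genes was lower in Minus_Rps26 than in Plus_Rps26 once ribosomal protein genes were left out, and most of that difference lay in 5 genes. Of the counts of nuclear coding genes, ribosomal protein genes left out, they held 4.23%, 4.04% and 3.92% in Minus_Rps26 (replicates 1 to 3), 4.77%, 5.41% and 6.62% in Plus_Rps26 and 8.79% in Rps3-TAP. With this denominator all 3 values of Minus_Rps26 lay below all 3 of Plus_Rps26. With ribosomal protein genes kept in it the shares were 3.31%, 3.22% and 3.27% in Minus_Rps26 and 3.40%, 3.29% and 4.15% in Plus_Rps26, lower in each replicate pair but with ranges that overlapped. Of all counts they were 3.06%, 3.14% and 3.21% against 3.16%, 2.70% and 3.03%, so that Minus_Rps26 was the higher in replicates 2 and 3. The 5 members with the most counts over the 7 libraries, PGK1, TDH3, YDR524C-B, CWP2 and TKL1, a transketolase gene, held 1.45%, 1.41% and 1.32% in Minus_Rps26, 1.92%, 2.70% and 3.73% in Plus_Rps26 and 5.85% in Rps3-TAP. The other 148 held 2.78%, 2.63% and 2.60%, then 2.85%, 2.72% and 2.88%, and 2.95%. Those 148 thus spanned 2.60% to 2.95% over all 7 libraries, and their ranges in Minus_Rps26 and Plus_Rps26 overlapped, although Minus_Rps26 was the lower in each of the 3 pairs. Ribosomal protein genes, which are outside this denominator, took 16.4% to 21.9% of nuclear coding counts in Minus_Rps26, 28.7% to 39.3% in Plus_Rps26 and 33.2% in Rps3-TAP, and the part of this shift in the values of the consensus genes was not tested. Total mRNA was not analysed here, so the amount of an mRNA and its share on ribosomes cannot be told apart.

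**Figure D1:**
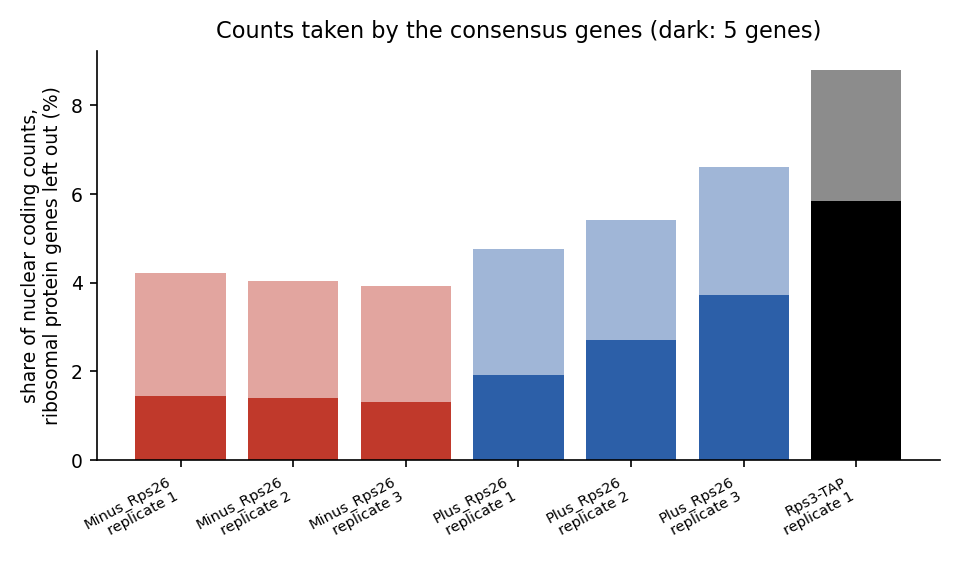
Share of the counts of nuclear coding genes, ribosomal protein genes left out, that fell to the 153 consensus genes (y axis, percent) in each of the 7 libraries (x axis). The dark lower part of a bar is PGK1, TDH3, YDR524C-B, CWP2 and TKL1, which runs from 1.32% to 5.85%, while the light part above it stays between 2.60% and 2.95%.

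Between the 2 ribosome classes, 13 of the 150 tested consensus genes fell in Minus_Rps26 (8.67%) and 7 rose (4.67%), where 7.90% of all 5668 features fell and 8.10% rose. Of the 5244 other genes with a context, 6.05% fell and 8.56% rose. The genes that fell had coding lengths of 180 to 1251 bases, with PGK1, TDH2, TSA1 and the homoserine dehydrogenase gene HOM6 among them, and those that rose had 2304 to 4488 bases, with UBP3 and ITC1 among them. The median log2 fold change of the consensus genes was -0.15, with the middle 50% from -0.73 to 0.42 and the extremes at -2.36 and 1.56, against a median of 0.07 over the other genes and 0.03 over all features. A value below 0 was found for 54.7% of consensus genes and 46.4% of the others. Each of these 20 calls had an adjusted p of 0.0357 or more. In a fit blocked on replicate number, which ties the eluate and flowthrough of 1 lysate, 0 consensus genes were called, with 0.117 as the smallest adjusted p of the fit, and the 20 genes kept the sign of their fold changes.

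PGK1 (YCR012W, chromosome III, 137746 to 138996 on the plus strand, assembly R64 of sacCer3) had the lowest value. Its levels in Minus_Rps26 were 1963, 1490 and 1864 CPM (replicates 1 to 3), those in Plus_Rps26 3005, 8123 and 16064 CPM, and that in Rps3-TAP 21707 CPM. The groups did not overlap, and Plus_Rps26 replicate 1 was the lowest of its group and nearest to Minus_Rps26. The means were 1773 ± 249 and 9064 ± 6580 CPM (SD over 3 libraries each). On the log2 scale PGK1 was lower at -2.36 ± 0.55 (SE), with an edgeR adjusted p of 0.0357, or 0.117 with the replicate block. CHO1 (YER026C, V, 207644 to 208474, minus strand), which encodes phosphatidylserine synthase, stood at 97.3, 90.5 and 60.0 CPM in Minus_Rps26, 110.0, 376 and 494 CPM in Plus_Rps26 and 365 CPM in Rps3-TAP. Here too the groups were apart, by a narrow gap between the replicates numbered 1. Its log2 fold change was -1.99 ± 0.48 (SE; edgeR adjusted p = 0.0357). APS2 (YJR058C, X, 544732 to 545175, minus strand), the small subunit gene of the AP-2 clathrin adaptor, had 26.8, 17.6 and 18.7 CPM in Minus_Rps26 and 33.2, 100.0 and 84.5 CPM in Plus_Rps26. Again Plus_Rps26 replicate 1 was nearest to the other class, without overlap, and the log2 fold change was -1.79 ± 0.40 (SE; edgeR adjusted p = 0.0357).

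Several abundant members fell as well. TSA1 had 635, 332 and 469 CPM in Minus_Rps26, 1007, 820 and 1559 CPM in Plus_Rps26 and 4160 CPM in Rps3-TAP, with no overlap between the classes and a 2.36-fold difference (log2 -1.24 ± 0.37 SE; edgeR adjusted p = 0.0451). HOM6, which makes homoserine for threonine and methionine, had 405, 432 and 403 CPM in Minus_Rps26, 642, 1025 and 1335 CPM in Plus_Rps26 and 798 CPM in Rps3-TAP. Its libraries of Minus_Rps26 were tightly grouped and all below Plus_Rps26, and the log2 fold change was -1.28 ± 0.33 (SE; edgeR adjusted p = 0.0365). HOR7 fell 2.92-fold (edgeR adjusted p = 0.0490) and the small open reading frame YPR170W-B 2.85-fold (0.0409), both without overlap. For HOR7 the gap was narrow, between 485 CPM in Minus_Rps26 and 504 CPM in Plus_Rps26, both of replicate 1. TDH2, at 224, 197 and 165 CPM in Minus_Rps26 and 200, 546 and 951 CPM in Plus_Rps26, passed narrowly (log2 -1.54 ± 0.47 SE; adjusted p = 0.0497) although Plus_Rps26 replicate 1 lay inside the range of Minus_Rps26. ADH2, the glucose-repressed alcohol dehydrogenase gene, had 6.33, 10.2 and 7.67 CPM in Minus_Rps26, 8.31, 31.4 and 44.0 CPM in Plus_Rps26 and 2.62 CPM in Rps3-TAP, and fell 3.47-fold with Plus_Rps26 replicate 1 inside the range of Minus_Rps26 (adjusted p = 0.0450). A further 4 fell and are named for that outcome and not by rule: the siroheme synthesis gene MET8 (log2 -1.50), MVB12 of the ESCRT-I complex (-1.25), YIL029C (-1.25) and YGL101W (-0.97).

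Of the 8 lowest members by rule, TDH1 and REE1 did not pass. TDH1 had 84.1, 24.1 and 37.0 CPM in Minus_Rps26 and 71.1, 121 and 273 CPM in Plus_Rps26 (log2 -1.68 ± 0.55 SE; edgeR adjusted p = 0.0552), and REE1, named for an effect on enolase genes, was at -1.58 ± 0.54 (SE; 0.0618). Both overlapped between the classes. The other most abundant members also had values below 0 but did not pass. TDH3, at 2293, 2952 and 2996 CPM against 3283, 4202 and 7272 CPM, had a log2 fold change of -0.85 ± 0.39 (SE; adjusted p = 0.136), YDR524C-B -0.81 ± 0.37 (0.135), RPB10, which encodes a subunit shared by the 3 nuclear RNA polymerases, -0.79 ± 0.29 (0.0763), CWP2 -0.66 ± 0.29 (0.128) and TKL1 -0.28 ± 0.30 (0.520).

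The genes that rose were led by UBP3 (YER151C, V, 469686 to 472424, minus strand), which encodes a ubiquitin protease. It stood at 63.7, 98.2 and 117 CPM in Minus_Rps26, 44.8, 22.8 and 26.8 CPM in Plus_Rps26 and 58.4 CPM in Rps3-TAP. The classes did not overlap, replicate 1 again held the nearest pair, and the log2 fold change was 1.56 ± 0.34 (SE; edgeR adjusted p = 0.0357). ITC1 (YGL133W, VII, 257707 to 261501, plus strand), a subunit gene of the Isw2 chromatin remodeller, had 82.4, 101 and 141 CPM in Minus_Rps26, 42.1, 30.6 and 37.3 CPM in Plus_Rps26 and 18.0 CPM in Rps3-TAP, with no overlap (1.55 ± 0.29 SE; 0.0357). PSK2, a PAS kinase gene, rose by 1.43 ± 0.28 and PDS5, a cohesin regulator gene, by 1.39 ± 0.33 (SE; adjusted p = 0.0357 for each). SQS1, an activator of the helicase Prp43, rose 2.28-fold (0.0365) and GEA1, an exchange factor for Arf GTPases, 2.15-fold (0.0376). IQG1, which encodes the IQGAP protein of the cytokinetic ring and is named after its values were seen, rose 2.13-fold (0.0375). SLI15, a partner of the Aurora kinase, had 31.9, 38.3 and 54.4 CPM against 31.0, 6.81 and 6.06 CPM and did not pass (1.50 ± 0.57 SE; 0.0820), nor did the weak acid pump gene PDR12 (1.33 ± 0.44 SE; 0.0593).

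**Figure D2:**
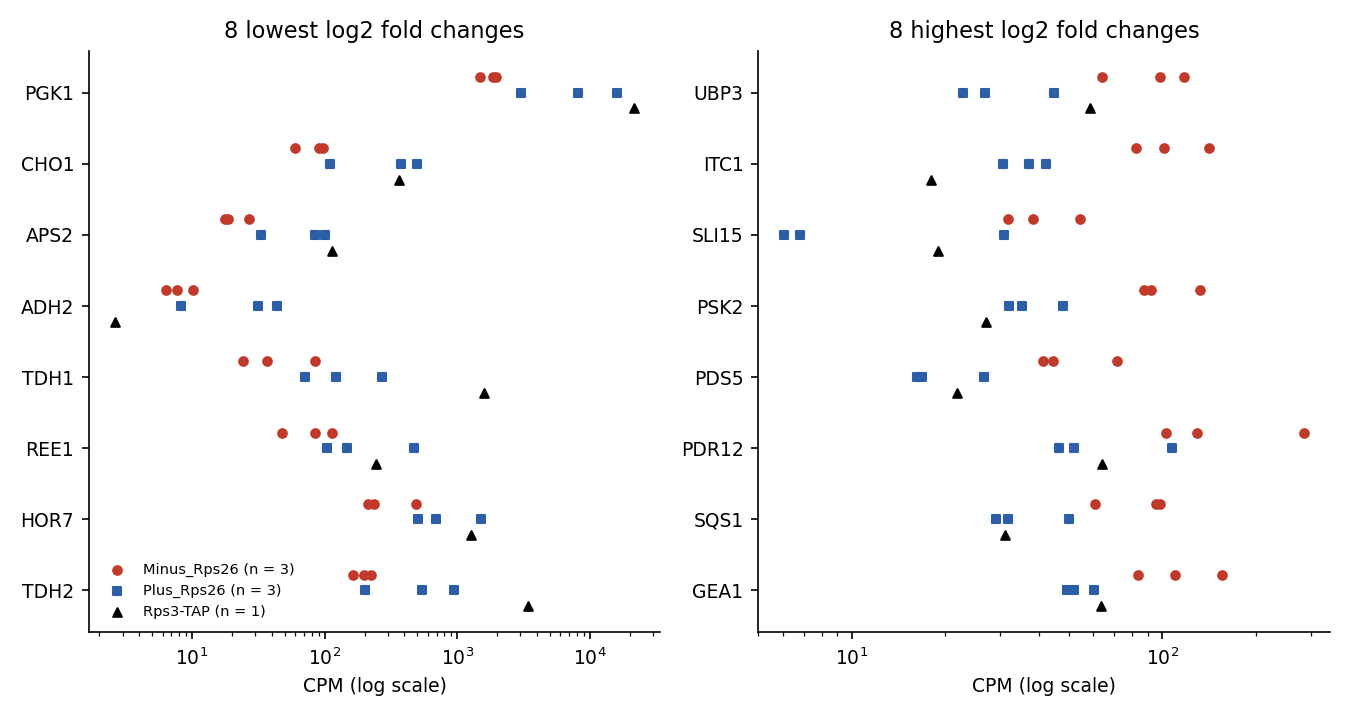
CPM in each library (x axes, log scale) of the 8 consensus genes with the lowest (left) and the 8 with the highest (right) log2 fold change of Minus_Rps26 over Plus_Rps26 among those with a mean of 10 CPM or more. Circles, squares and triangles are single libraries of Minus_Rps26, Plus_Rps26 and Rps3-TAP. PGK1 runs from 1490 CPM in Minus_Rps26 to 16064 CPM in Plus_Rps26, and TDH2, TDH1, ADH2, REE1 and PDR12 overlap between the classes.

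The calls depended on the libraries and the scaling. In edgeR 0 consensus genes and 0 of all features were called without replicate 2 or replicate 3 of either class. Without Minus_Rps26 replicate 1, 4 consensus genes rose and 1 fell, beside 179 and 35 of 5684 features. Without Plus_Rps26 replicate 1, 27 of 151 consensus genes rose and 44 fell, beside 1272 and 1223 of 5717 features. DESeq2 called all 20 and, in all, 13 higher and 31 lower, where it called 12.1% and 14.8% of 5776 features. Scaling by library totals in place of trimmed means moved the median of all features from 0.03 to 0.75 and that of the consensus genes from -0.15 to 0.57. Under that scaling 22 consensus genes were called higher and 1 lower, beside 1042 and 37 of all features. The 20 genes called above kept their signs, 8 of them called again, while TDH3, CWP2 and RPB10 moved to 0.02, 0.08 and 0.00. In the authors' deposited table, of 150 consensus genes 35 were lower (23.3%) and 15 higher (10.0%) at an adjusted p of 0.05, against 15.7% and 13.4% of its 5517 tested rows, and the median log2 fold change of the consensus genes was -0.20.

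Without regard to the test, the CPM of the 3 libraries of Minus_Rps26 lay wholly below those of Plus_Rps26 for 41 consensus genes (27.3%) and wholly above for 27 (18.0%), where 17.4% of all features lay below and 21.0% above (38.3% in all). For the other genes with a context the shares were 15.2% below and 22.0% above. Within replicate pairs the median log2 ratio of Minus_Rps26 over Plus_Rps26 for consensus genes was -0.11, -0.13 and -0.12 in replicates 1, 2 and 3, and for the other genes 0.02, 0.09 and 0.17. The median of the consensus genes was thus lower than that of the others in each pair. It stayed within a narrow range while that of the others differed between pairs. The share of consensus genes below 0 did differ, at 60.7%, 55.3% and 52.7%, against 48.3%, 46.6% and 44.6% of the others. The ratio was below 0 in all 3 pairs for 59 consensus genes (39.3%, against 26.0% of the others) and above 0 in all 3 for 35 (23.3%, against 31.9%). Of the genes at the ends of the range, PGK1 stood at -0.61, -2.46 and -3.12 in replicates 1, 2 and 3, and UBP3 at 0.52, 2.09 and 2.11.

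**Figure D3:**
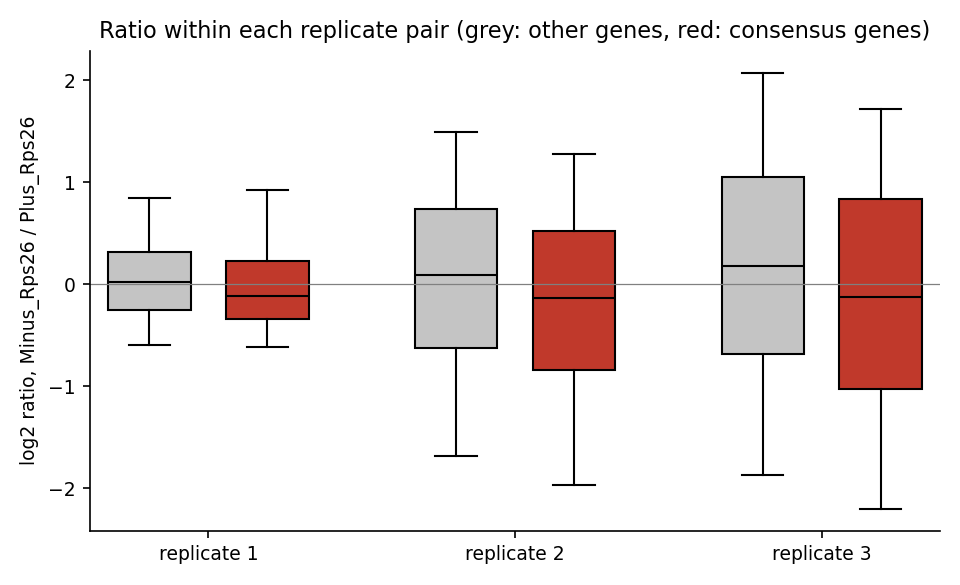
Log2 ratio of Minus_Rps26 over Plus_Rps26 (y axis, from CPM with a prior count of 1) within each replicate pair (x axis), for the other genes with a context (grey) and the consensus genes (red). Boxes span the middle 50% of genes with a line at the median, and whiskers run from the 5th to the 95th percentile. The red medians lie at -0.11, -0.13 and -0.12 and the grey ones at 0.02, 0.09 and 0.17.

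Fold changes between the classes followed coding length over all genes, and the consensus genes took part in this. In 5 equal groups by coding length the median log2 fold change of consensus genes went from -0.67 in the shortest (78 to 675 bases, 38 genes) through -0.39 (676 to 1053 bases, 34 genes), -0.31 (1056 to 1491 bases, 30 genes) and 0.24 (1494 to 2133 bases, 25 genes) to 0.89 in the longest (2136 to 14730 bases, 23 genes). The other genes of the same groups stood at -0.63, -0.30, 0.03, 0.33 and 0.94. The consensus genes were lower by 0.10 or less in every length group but the middle one, where they were lower by 0.33. Of the 13 falls 11 lay in the 2 groups of shortest genes and the other 2, PGK1 and HOM6, in the middle one, while all 7 rises lay in the longest. Falls made up 7 of 38 consensus genes in the shortest group, where 20.6% of the other genes fell, and 4 of 34 in the next, where 8.66% did. The 7 rises were among 23 consensus genes of the longest group, where 37.6% of the others rose. In the 2 shortest groups and the longest the counts thus lay near the shares of other genes of like length. The middle group had 2 falls among 30 consensus genes, where 1.24% of the other genes fell. In the middle group 9 of 30 consensus genes had all libraries of Minus_Rps26 below those of Plus_Rps26 (30.0%), against 9.41% of the other genes. In the shortest group it was 19 of 38 (50.0%, against 40.8%) and in the next 13 of 34 (38.2%, against 23.5%). In the 2 longest groups it was 0 consensus genes, against 3.04% and 0% of the others. After a curve of log count on coding length was taken out of every library, the median was -0.07 for the consensus genes and 0.01 for the others, and 0 consensus genes were called, with 0.218 as the smallest adjusted p over all genes in that fit. PGK1 kept a value of -2.35 and CHO1 of -1.63, HOR7 moved from -1.54 to -0.61, and IQG1 and GEA1 turned to -0.12 and -0.13.

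**Figure D4:**
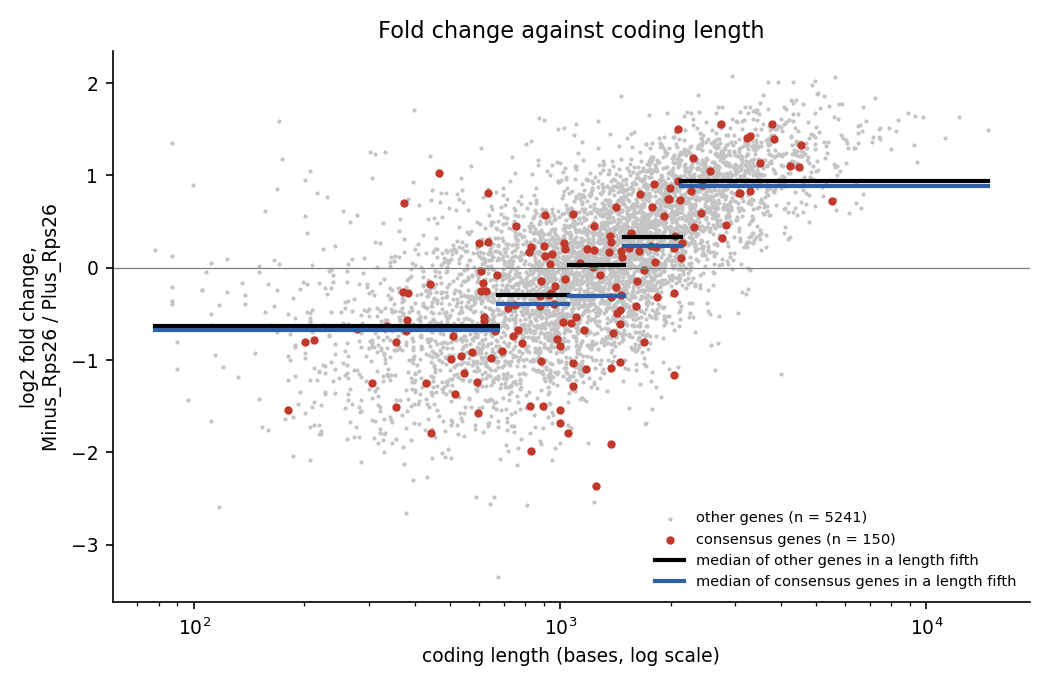
Log2 fold change of Minus_Rps26 over Plus_Rps26 (y axis) against coding length in bases (x axis, log scale), 1 point per gene, with the median in each of 5 length groups as a black bar for the other genes and a blue bar for the consensus genes. The bars lie close together except between 1056 and 1491 bases, at -0.31 for the consensus genes and 0.03 for the others.

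Level went with the fold change too, but it is CPM divided by coding length, averaged over groups that include both classes. It is thus not separate from length or from the counts behind the fold change. In 5 equal groups by CPM per kb the highest held 47 of the 150 consensus genes (31.3%) and 10 of the 13 falls, in a group where 23.7% of the other genes fell. The median log2 fold change there was -0.69 for the consensus genes and -0.66 for the other genes, and 25 of the 47 had Minus_Rps26 wholly below Plus_Rps26 (53.2%, against 46.4%). In the group from 15.3 to 28.8 CPM per kb, with 15 consensus genes, 5 rose, where 18.2% of the others did, and the median was 0.81 against 0.53 for the others.

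Glycolysis and fermentation was the functional list with the largest share of consensus contexts. Of its 29 genes 7 were members (24.1%): TDH1, TDH2, TDH3, PGK1, ADH2 and the pyruvate decarboxylase genes PDC5 and PDC6. Over the whole list 7 genes fell in Minus_Rps26 and 0 rose, with a median log2 fold change of -0.84. Of all features 7.90% fell and 8.10% rose. Lists without a member went either way, with 6 of 10 histone genes lower (median -1.08) and 6 of 28 Hog1 pathway genes higher (0.83). Among the glycolysis and fermentation members 3 fell, PGK1, TDH2 and ADH2, with a median of -1.54 over the 7. PDC5, with class means of 21.8 ± 1.54 and 22.0 ± 3.07 CPM (SD over 3 libraries each), was at -0.02 ± 0.29 (SE; edgeR adjusted p = 0.961), and its classes overlapped. With total-count scaling TDH3, PDC5 and PDC6 stood at 0.02, 0.77 and 0.09, and TDH1, TDH2, PGK1 and ADH2 stayed below 0.

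In the other lists members were few in number, though several lists held more than the 2.75% of all contexts that matched. Amino acid biosynthesis held 6 of 66 genes (9.09%), of which HOM6 fell, and GLY1, the threonine aldolase gene, was at -0.68 ± 0.37 (SE; edgeR adjusted p = 0.206). In the vesicle traffic list none of the members was called. BMH2, a 14-3-3 protein gene, had 248, 274 and 337 CPM in Minus_Rps26 against 456, 162 and 145 CPM in Plus_Rps26, where replicate 1 went the other way from replicates 2 and 3. The citric acid cycle list held 3 of 21 genes (14.3%), CIT3, KGD2 (-0.70 ± 0.31 SE; 0.123) and LSC2, and redox defence 2 of 19 (10.5%), TSA1, which fell, and the glutaredoxin gene GRX1 (-0.65 ± 0.27 SE; 0.104). Of ribosome assembly factors 2 of 63 with a context were members, with the pseudouridine synthase gene CBF5 at -0.46 ± 0.28 (SE; 0.254) and RLP24 at 0.27 ± 0.43 (SE; 0.674). Subunits of respiratory complex III, QCR7 (-0.27 ± 0.32) and COR1 (0.28 ± 0.32), and of the signal recognition particle, SRP14 (-0.18 ± 0.32) and SRP72 (0.56 ± 0.28), had values of either sign and did not pass. Neither did TIR2, a cell wall mannoprotein gene (0.45 ± 0.42), or TKL2, the minor transketolase gene (-1.16 ± 0.63). No member was among the 13 start codon selection factors, or among cap-binding factors, histones or genes of the Hog1 pathway. Of those 13 factors 1 rose and 1 fell, near the shares of all features (8.10% and 7.90%).

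The median log2 fold change was lower where more of the 6 positions matched. From 0 to 6 positions the medians were 0.18, 0.17, 0.11, 0.10, 0.06, -0.13 and -0.15, over 56, 329, 1021, 1600, 1472, 766 and 150 tested genes. The step lay between 4 and 5 matches, and genes with 5 and with 6 matches differed by 0.02. Median level went from 27.7 CPM per kb with 1 match to 53.2 with 5 and 52.0 with 6, and median coding length from 1308 to 1161 and 1084.5 bases. With the coding length trend removed the medians were 0.13, 0.01, 0.02, 0.02, 0.02, -0.06 and -0.07. At each count of matches the middle 50% of genes covered a range of about 1 log2 unit, far wider than the differences between medians.

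**Figure D5:**
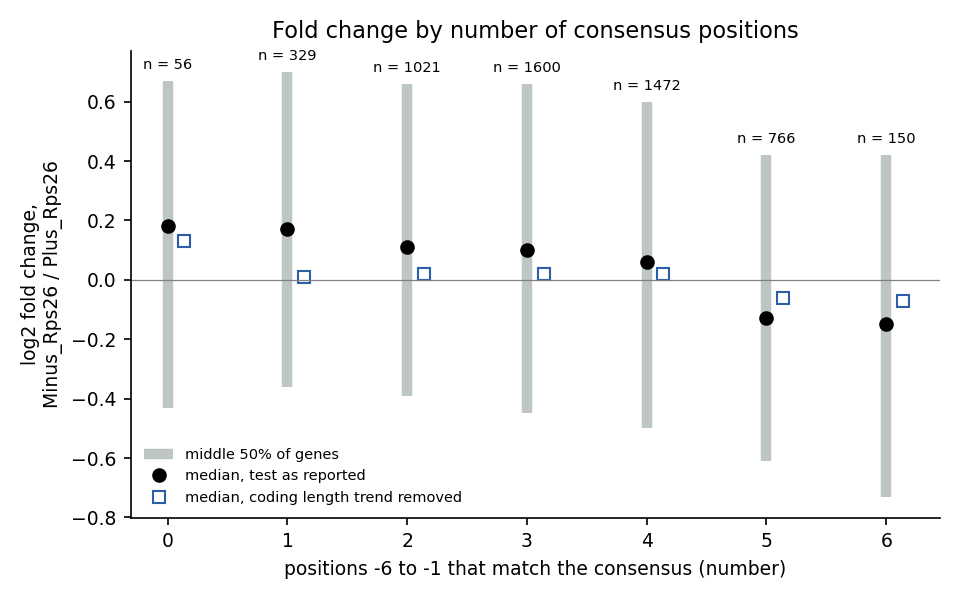
Median log2 fold change of Minus_Rps26 over Plus_Rps26 (y axis) by the number of positions from -6 to -1 that match the consensus (x axis), as tested (filled circles) and with the coding length trend removed (open squares). Grey bars span the middle 50% of genes. The circles go from 0.18 with no match to -0.15 with 6.

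Genes that differ from the consensus at a single position give the values base by base. With G at -4 and the other 5 positions matched, 50 tested genes had a median of 0.30, although 4 fell and 2 rose. Their medians in the replicate pairs were 0.06, 0.26 and 0.44. Their median level was 36.6 CPM per kb, against 52.0 for the full consensus. The 58 genes with T at -4 stood at -0.19. With C at -5, 67 genes had a median of -0.45, below that of the full consensus. Among them were 7 falls (10.4%, against 7.90% of all features) and 3 rises (4.48%, against 8.10%). G and T at -5 gave -0.05 and -0.14. A change at -3 was rare, with 14 tested genes that had T (median -0.28), 52 that had G (-0.12) and 16 that had C (0.16). Changes at -6, -2 and -1 gave medians from -0.28 (G at -1) to -0.02 (C at -6). Only the G at -4 and C at -3 groups had a median above 0. With the coding length trend removed G at -4 stood at 0.12, C at -5 at -0.26 and T at -3 at 0.12. Regardless of the other positions, all 815 tested genes with G at -4 had a median of 0.10 (9.33% rose, 5.40% fell) and all 588 with T at -3 a median of 0.15 (9.69% rose, 3.57% fell).

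Within the consensus, medians differed by base at the variable positions. The 107 tested genes with A at -4 had a median log2 fold change of 0.00 and the 43 with C at -4 a median of -0.32. In replicate pairs 1, 2 and 3 the medians were -0.09, -0.02 and 0.09 for A and -0.17, -0.32 and -0.53 for C. Genes with C at -4 were also more abundant, at a median of 93.7 CPM per kb against 49.2. With the length trend removed the difference remained, at 0.02 for A and -0.33 for C. T at -6 went with -0.30 and A with -0.07, but in replicate pair 1 the order was the other way, at -0.08 for T and -0.14 for A. C at -2 went with -0.17 and A with -0.14. By the number of A from -6 to -1, medians went from -0.68 with 3 (5 genes) through -0.34 with 4 (32 genes) and -0.15 with 5 (51 genes) to 0.08 with 6 (62 genes). This order did not hold in replicate pair 1, where 6 A stood at -0.15 and 5 A at -0.01. Nor did it hold by single form in the fit. The form with C at -4 and -2 (4 A, 11 genes) stood at 0.17 and that with C at -2 alone (5 A, 15 genes) at 0.10. The pure run was at 0.08 and the remaining forms lay from 0.00 down to -0.68. With the coding length trend removed the first 3 of these forms stood at -0.36, 0.02 and 0.04. In the fit the pure run of A had the highest median among the consensus forms grouped by their number of A, close to the 0.07 of genes outside the consensus. These subsets are small and differ in level, and the part of level in their medians was not tested.

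Both comparisons with Rps3-TAP share its single library, and each shares a class with the comparison above, so values are given side by side and no agreement between them is counted. The single library is assumed to vary like the others. Of 152 tested consensus genes 31 were lower in Minus_Rps26 than in Rps3-TAP (20.4%) and 15 higher (9.87%), where 15.6% and 10.6% of all 5815 features were (26.2% in either direction), and the median log2 fold change was -0.07 against 0.21 for the other genes. In Plus_Rps26 5 were lower than in Rps3-TAP (3.29%) and 0 higher, where 1.27% and 0.206% of all features were (1.48% in either direction; 1.26% and 0.207%, or 1.47%, of the other genes). At an unadjusted p under 0.05 edgeR had 22 lower and 16 higher, where 11.4% and 9.34% of all features were. DESeq2 called 16 lower and 4 higher, where it called 4.62% and 2.59% of 6015 features. The median was 0.00 against 0.06 for the others. Growth differed between the strains, in medium and doxycycline, and cannot be told apart from the ribosome class here.

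Of the consensus genes called against Rps3-TAP, the glyceraldehyde-3-phosphate dehydrogenase gene TDH1 had the lowest log2 fold change in each class. TDH1 stood at 1599 CPM in Rps3-TAP, with a log2 fold change of -5.05 ± 0.71 in Minus_Rps26 (SE; edgeR adjusted p = 0.00238) and -3.37 ± 0.69 in Plus_Rps26 (SE; 0.0417). TDH2 stood at 3406 CPM, at -4.13 ± 0.61 (0.00284) and -2.59 ± 0.61 (0.0632), and TDH3 at 18890 CPM, at -2.78 ± 0.49 (0.00513) and -1.94 ± 0.50 (0.0703). PGK1 was at -3.61 ± 0.67 (0.00597) and -1.26 ± 0.69 (0.331). All 4 were thus lower than Rps3-TAP in Minus_Rps26, and TDH1 alone passed in Plus_Rps26. LSC2, which encodes a succinyl-CoA ligase subunit of the citric acid cycle, had 19.3 to 21.6 CPM in Minus_Rps26, 19.5 to 25.1 CPM in Plus_Rps26 and 107 CPM in Rps3-TAP, so that both classes were lower (-2.39 ± 0.34 and -2.31 ± 0.34 SE; adjusted p = 0.00250 and 0.0143) and did not separate from each other (-0.08 ± 0.29 SE; 0.858). DUR1,2, the urea amidolyase gene, was likewise lower in both (-2.11 ± 0.52 and -2.84 ± 0.51 SE; 0.0160 and 0.0302), and so were CWP2 (-2.47 and -1.82) and SCS22 (-2.42 and -2.26), which was picked with its values known.

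Among the genes higher than Rps3-TAP in Minus_Rps26, ITC1 led the named ones at 2.58 ± 0.48 (SE; edgeR adjusted p = 0.00601; 1.02 ± 0.44 in Plus_Rps26, 0.215). DBP9, an RNA helicase gene of large subunit assembly, had 282, 308 and 270 CPM in Minus_Rps26, 266, 159 and 118 CPM in Plus_Rps26 and 62.8 CPM in Rps3-TAP, and was at 2.19 ± 0.53 (SE; 0.0159) and 1.53 ± 0.51 (SE; 0.136). RPF1, another assembly factor gene, was close to level between the classes, at 89.4 to 96.5 CPM and 91.4 to 119 CPM, and stood at 28.4 CPM in Rps3-TAP (1.71 ± 0.40 SE; 0.0135 in Minus_Rps26, and 1.85 ± 0.40 SE; 0.0514 in Plus_Rps26). SKT5, an activator of chitin synthase, was at 2.08 ± 0.72 (SE; 0.0556), with Minus_Rps26 at 76.8, 213 and 246 CPM against 42.1 CPM. Of the other members highest in Plus_Rps26 over Rps3-TAP, ADH2 was at 3.41 ± 0.94 (SE; 0.0819) and the lipase gene TGL2 at 1.73 ± 0.49 (SE; 0.0898), neither passing. With total-count scaling 40 consensus genes were higher and 8 lower in Minus_Rps26, 23 of the 46 calls being made again, and 0 of the 5 calls in Plus_Rps26 were, while the median of all features moved from 0.18 to 1.39 and from 0.07 to 0.55.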

How the data were processed

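The authors deposited 7 files of raw counts, 1 per library, over annotated features. Libraries came from RNA cleared of ribosomal RNA and a strand-specific total RNA kit, per the labels' protocols. Per the submitters' processing notes, TopHat2 2.0.9, the build sacCer3, DESeq and DESeq2 were used. Which program counted the reads, and with what strand setting, is not stated in the sources used here, and reads of overlapping genes (GFA1 and SLM1 among the members) cannot be assigned with certainty. The authors' deposited table gives log2 fold changes, adjusted p-values and the 20-base contexts, per the file headers. Its last base was taken as -1. Where alignments were not unique, the closing line of the files holds 0 in replicate 3 of both groups, unlike the other 5 libraries. Reads in no feature (3.37% to 7.48%) stayed out of library sizes.

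All 153 members were found by name in a RefSeq gene table for R64, the assembly of sacCer3. Coding length is the annotated span, introns included. Counts were fitted with edgeR 4.0.16 (R 4.3.3), with trimmed-mean (TMM) scaling, its default filter on low counts, the quasi-likelihood test and Benjamini-Hochberg adjustment over all features at 0.05. Minus_Rps26 and Plus_Rps26 were fitted alone, and comparisons with Rps3-TAP over all 7 libraries. SE is the log2 fold change over the square root of F. Printed CPM use the factors over 7 libraries. The length trend was removed with a lowess curve per library (span 0.5). The fit was checked on simulated counts for the mean size of known fold changes, and the removal of the length trend for the slope left. The simulated libraries had no lysate pairs and no deviating library, so the check says nothing on how stable the calls are. By the protocol, libraries of 1 replicate number come from 1 lysate and are pairs. For replicates 1, 2 and 3, the deviations of both libraries from the means of their groups had correlations of -0.21, 0.40 and 0.01 over 5668 features. The title was used for the flowthrough library of replicate 2, which its description numbers 1. No 2 replicate libraries agreed within sampling noise (chi-square per degree of freedom 150.7 to 607.6).

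Genes are named by rule: the 10 members highest in CPM per kb; the 8 members at each end of the log2 fold changes between the classes and the 3 highest and 3 lowest against Rps3-TAP, at a mean of 10 CPM or more (136 members); and up to 2 members of each gene list with 2 or more. A further gene that the rule selects is not reported here. Members and lists were chosen with earlier results of these data known. Alternatives were other scaling, DESeq2 1.42.0, no filter, nuclear protein-coding genes alone without ribosomal protein genes, the length trend removed, a replicate block, all 7 or only 4 libraries, each library left out, and looser or stricter consensus rules. Leaving out replicate 1 of both groups, and members with near-identical copies, were chosen after seeing the data.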

Additional observations from a re-analysis of the deposited data

How the results depend on the processing

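Against Plus_Rps26, the direction of the consensus genes' median (-0.15) held under DESeq2 size factors (-0.21), DESeq2 (-0.20), nuclear coding genes without ribosomal protein genes (-0.20), the length trend removed (-0.07), the replicate block (-0.14), both of these (-0.08), all 7 libraries in the fit (-0.17), without replicate 1 of both groups (-0.17), no condition at -6 (-0.14), ribosomal protein genes kept (-0.26), a mean of 10 CPM or more (-0.17), without near-identical copies (-0.13), and each library left out (-0.21 to -0.11). It turned with total counts (0.57), where the median of all genes moved as well, and with A at all 6 positions (0.08), a set of 62 tested genes. Calls were less stable. Members called higher and lower were 22 and 1 with total counts, 13 and 31 with DESeq2 (700 and 852 of all features), 32 and 43 without replicate 1 of both groups (1387 and 1284 of all features), 12 and 21 without the condition at -6, and 2 and 4 with A throughout. Lower calls were 21 with nuclear coding genes alone and 21 with ribosomal protein genes kept. With total counts 1042 features were higher and 37 lower. With the replicate block, the length trend removed, or both, 0 features and 0 members were called. Leaving out each library gave 0 to 27 members higher and 0 to 44 lower, and 0 to 1272 and 0 to 1223 of all features. The extremes were Plus_Rps26 replicate 1 (most calls) and replicates 2 and 3 of either group (0 calls). Of all features, leaving out Minus_Rps26 replicate 1 left 179 higher and 35 lower. The cause was not tested.

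Minus_Rps26 against Rps3-TAP (median -0.07) moved to 1.15 with total counts, to 0.10 with A throughout, and otherwise to -0.15 (DESeq2 size factors), -0.14 (DESeq2), -0.12 (nuclear coding genes alone, and the 4 libraries alone), -0.03 (no condition at -6), -0.27 (ribosomal protein genes kept), -0.11 (10 CPM or more), -0.04 (without near-identical copies) and -0.13 to -0.08 (each library left out). Members higher and lower were 40 and 8 with total counts (1644 and 147 of all features) and 4 and 20 with the length trend removed (265 and 538). Higher calls were 23 with 4 libraries (1078 of all features), 25 without the condition at -6 and 6 with A throughout, where 10 were lower. Leaving out each library gave 4 to 12 higher and 18 to 26 lower, and 170 to 549 and 445 to 763 of all features. For Plus_Rps26 against Rps3-TAP the median (0.00) moved to 0.43 with total counts and -0.09 with ribosomal protein genes kept. Members lower were 0 with total counts (2 features higher and 4 lower), 0 with 4 libraries (0 and 4), 16 with DESeq2, with 4 higher (156 and 278), 10 with nuclear coding genes alone, with 1 higher (25 and 138), and 1 with A throughout. With the length trend removed 1 member and 19 features were higher. Leaving out each library gave 0 to 5 higher and 2 to 19 lower, and 2 to 205 and 27 to 381 of all features. The cause was not tested.

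Signs that turned between the classes belonged to named genes that did not pass, GEA1 and IQG1 aside. With total counts these were TDH3 (0.02), CWP2 (0.08), TKL1 (0.51), RPF1 (0.56), TGL2 (0.05), SRP14 (0.44), GLY1 (0.20), QCR7 (0.35), KGD2 (0.09), LSC2 (0.68), GRX1 (0.09), CBF5 (0.31), PDC5 (0.77), PDC6 (0.09) and SCS22 (0.52). With the length trend removed, and with the block as well, they were YDR524C-B (0.11 and 0.15), CWP2 (0.18 and 0.17), RPB10 (0.08 and 0.09), GEA1 (-0.13 and -0.12), IQG1 (-0.12 and -0.13), SCS22 (0.36 and 0.38), RPF1 (0.16 and 0.17), DUR1,2 (-0.74 and -0.65), SRP14 (0.44 and 0.57), QCR7 (0.39 and 0.51) and GRX1 (0.11 and 0.12), with PDR12 at -0.01 under the first. Under the second RPS3, a ribosomal protein gene outside the set, moved from -1.09 to 0.12. SRP14 stood at 0.15 and SCS22 at 0.04 without replicate 1 of both groups. With single libraries left out QCR7 ranged from -0.47 to 0.06, SRP14 from -0.39 to 0.18, LSC2 from -0.19 to 0.05, PDC5 from -0.18 to 0.04, BMH2 from -0.15 (-0.07 without Plus_Rps26 replicate 2) to 0.83 and RLP24 from -0.06 to 0.99. With no filter on low counts YGL101W missed the threshold (edgeR adjusted p = 0.0501), and the other 19 calls between the classes were made again.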
